A study of Mus musculus with 6 samples.

Results

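The AP-1 and Egr immediate early factors are 10 transcription factor genes chosen by symbol, out of the 24346 symbols listed in each of 6 RNA-seq libraries of mouse cranial base cartilage. They are the Fos genes Fos, Fosb, Fosl1 and Fosl2, the Jun genes Jun, Junb and Jund, the related Atf3, and the zinc finger genes Egr1 and Egr2. All 10 were listed. A total of 8 had a mean of at least 1 FPKM (a read-out scaled by transcript length and by sequencing depth) and were tested, while Egr2 and Fosl1 lay below that level and are given by their values.

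Fos and Jun proteins pair through leucine zippers into the AP-1 dimers, which bind a short palindromic DNA element. Jun proteins can also pair with themselves, and Fos proteins need a Jun partner. Immediate early genes such as Fos and Egr1 are switched on within minutes by growth factors, mechanical load and stress, without new protein synthesis, through serum response factor, its ternary complex partners and MAP kinases. In the skeleton, AP-1 members are known for roles in chondrocyte proliferation, hypertrophy and bone formation, and their targets include matrix metalloproteases.

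The libraries came from layers of flat and round chondrocytes of the spheno-occipital synchondrosis, cut out by laser microdissection. Their titles carry the codes FP and RR, with 3 libraries each, numbered 11, 14 and 16 in both, and the codes are kept here because the labels do not spell them out. All 6 share the genotype Gli1CreERT2; Tomato flox and tamoxifen at postnatal day 3, so the Cre is driven by Gli1, a hedgehog target gene, and no group lacks it. The labels give no age at collection. They also do not tie libraries to animals, so each p-value reflects only how these 6 samples vary, and part of that may be technical.

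Depth differed up to 2.33-fold between libraries, read from the steps that single fragments leave in low FPKM values and provided that libraries were not rescaled against each other. On a 2000 bp transcript 1 fragment was worth between 0.128 FPKM (FP 11) and 0.298 FPKM (RR 14). All 11 listed chondrocyte markers were detected in all 6 libraries, with summed levels of 56346 to 97834 FPKM in FP and 47589 to 99013 FPKM in RR. Markers of other tissues were present as well, with group ranges that overlapped. The sums were 363 to 1052 FPKM in FP and 238 to 1690 in RR for 10 bone markers, 463 to 581 and 276 to 821 for 12 muscle markers, and 79.9 to 123 and 67.3 to 122 for 9 blood and endothelial markers. They were 71.1 to 128 and 34.1 to 177 for 10 macrophage and osteoclast markers, and 73.2 to 132 and 96.2 to 180 for 10 fibroblast and perichondrium markers. None of these markers was at 0 in every library. By estimate 11 of 12 muscle markers and 10 of 11 chondrocyte markers were higher in FP (median log2 changes of 0.92 and 0.84, with 0 past the test in either list). Of 9 tested bone markers 7 were higher in FP by estimate and 1 passed, Sp7, the osterix gene of osteoblasts and hypertrophic chondrocytes (2.81 ± 0.28, limma adjusted p = 0.00418). Their part in the values of the factors was not tested.

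Promoters of 8 of the 10 genes were found in the RefSeq table (GRCm38.p6). Shown here are the 250 bases before the start sites of Jun and Fos, the best known AP-1 pair, whose values below differ in pattern, and of Atf3 and Egr2, which are known for stress and serum responses. The Atf3 start lies 34706 bp from the start of the GENCODE gene, and the Egr2 window is 1 of several RefSeq starts, taken because it holds a CArG box. The Egr2 start shown lies 2394 bp from the start of its GENCODE gene. The window of the Egr2 start nearest to that, 24 bp away, held no match to a searched motif. Each is written 5′ to 3′ on the gene's strand, and capitals mark matches on either strand to a searched motif: TGANTCA (the AP-1 element), TGACNTCA (its longer, CRE-like form), TGACG (the core of a CRE, written CGTCA where it lies on the other strand), the CArG box bound by serum response factor, GCGNGGGCG (an Egr element) and TATAAA. A TGACNTCA with G at its open base also holds TGACG on both strands. The motifs were chosen with these sequences in view.
Jun, chr4:95052223-95052472, minus strand: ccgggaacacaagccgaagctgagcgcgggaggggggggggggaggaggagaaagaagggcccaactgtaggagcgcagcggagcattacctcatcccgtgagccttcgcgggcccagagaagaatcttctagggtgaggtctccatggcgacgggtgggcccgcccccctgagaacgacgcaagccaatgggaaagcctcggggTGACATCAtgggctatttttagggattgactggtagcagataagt
Fos, chr12:85473640-85473889, plus strand: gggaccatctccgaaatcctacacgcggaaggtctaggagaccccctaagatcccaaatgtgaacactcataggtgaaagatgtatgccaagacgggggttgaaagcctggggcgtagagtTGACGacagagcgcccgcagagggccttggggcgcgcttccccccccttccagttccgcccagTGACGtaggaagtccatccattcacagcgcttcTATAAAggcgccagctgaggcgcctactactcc
Atf3, chr1:191183334-191183583, minus strand: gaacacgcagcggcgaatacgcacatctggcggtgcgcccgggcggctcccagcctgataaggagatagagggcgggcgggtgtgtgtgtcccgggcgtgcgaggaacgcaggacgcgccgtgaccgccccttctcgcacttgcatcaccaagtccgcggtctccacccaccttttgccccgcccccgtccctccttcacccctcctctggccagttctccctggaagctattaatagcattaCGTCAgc
Egr2, chr10:67537619-67537868, plus strand: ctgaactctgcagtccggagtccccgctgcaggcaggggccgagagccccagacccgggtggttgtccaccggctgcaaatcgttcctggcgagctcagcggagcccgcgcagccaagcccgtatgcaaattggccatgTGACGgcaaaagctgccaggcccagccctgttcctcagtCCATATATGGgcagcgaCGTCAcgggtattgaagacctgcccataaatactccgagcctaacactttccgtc
The Jun window held TGACATCA, a match to TGACNTCA, 38 to 45 bases before the start, and TGACNTCA was in 7.49% of 32817 mouse promoter windows of this length. The Fos window held TGACG at 62 to 66 and at 125 to 129 bases and TATAAA at 28 to 33 bases before the start. TGACG was in 17.7% of windows and TATAAA in 12.4%. The Atf3 window held CGTCA at 3 to 7 bases. The Egr2 window held a CArG box, CCATATATGG, at 63 to 72 bases, with TGACG at 107 to 111 bases before the start and CGTCA at 51 to 55 bases. A CArG box was in 1.47% of windows, but the Egr2 window was chosen for holding 1. TGANTCA was in 6.75% of windows and GCGNGGGCG in 4.7%, and none of the 4 windows shown held either. GCGGGGGCG, a match to GCGNGGGCG, was in the windows of Fosb (42 to 50 bases before the start) and Fosl2 (71 to 79 bases), which are not shown. These are matches of letters and do not show binding.

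No tested factor differed between FP and RR past the threshold of the test (limma, Benjamini-Hochberg adjusted p under 0.05 over 14789 genes), where 0.967% of all tested genes did (0.554% higher and 0.412% lower in FP). At an unadjusted p under 0.05 there were 2 of the 8, Egr1 and Jun, both lower in FP, against 10.3% of all tested genes in either direction and 4.55% lower in FP. Groups without overlap and higher in FP occurred for 0 of the 8, against 8.74% of all tested genes. Of the 8 estimates 6 were below 0, as were 48.4% of all tested genes. The median change of the 8 was -0.22 on the log2(FPKM + 1) scale, beside 0.02 for all tested genes. No tool other than limma was run. A p that misses the threshold does not show that levels were equal. In such tissue samples, fewer cells that express a gene and less RNA per cell cannot be told apart.

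**Figure D1:**
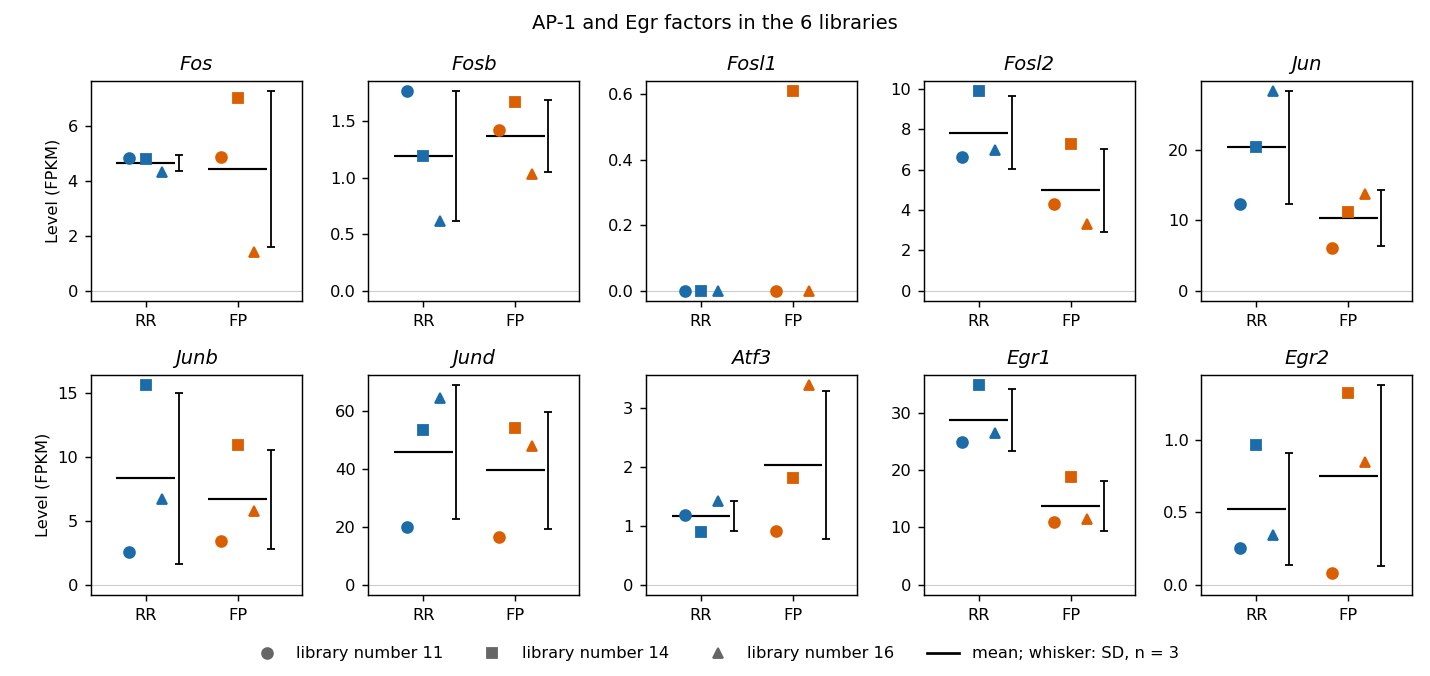
Level in FPKM of each of the 10 factors in the 3 RR (blue) and 3 FP (orange) libraries, with symbols for the library number, a line at the group mean and a whisker of 1 SD (none for Fosl1, which has values of 0). Egr1 is the only one of the 10 whose FP values, 10.9 to 18.8, all lie below its RR values, 24.9 to 35.0.

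Egr1, a zinc finger activator and among the fastest of the immediate early genes, showed the clearest separation. Its level was 10.9, 18.8 and 11.6 FPKM in FP 11, 14 and 16, and 24.9, 35.0 and 26.5 FPKM in RR 11, 14 and 16. The highest FP value lay below the lowest RR value, so the groups did not overlap. This was so, with FP lower, for 1 of the 8 tested factors and for 7.28% of all tested genes. The means were 13.8 ± 4.39 and 28.8 ± 5.38 FPKM (SD, n = 3 each), a ratio of 2.09. The log2 change was -1.04 ± 0.29 (SE, 95% interval -1.71 to -0.37 for this gene alone), with a limma adjusted p = 0.218. Each of the 6 values corresponds to about 138 to 339 fragments. Egr1 ranked 475 of 14789 by p.

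Egr2, a kin of Egr1 best known from hindbrain and myelin development, was near the limit of detection. It stood at 0.0834, 1.33 and 0.849 FPKM in FP 11, 14 and 16, and at 0.254, 0.966 and 0.342 FPKM in RR. These correspond to about 1 to 8 fragments, and the groups overlapped. In both groups the library numbered 14 was highest and that numbered 11 lowest. Egr3, another kin that was named after its values were seen, had FP values of 0.449, 0.255 and 0.639 FPKM against RR values of 1.95, 1.78 and 0.70, also too low for the test. Egr4, a further kin named in the same way and too low for the test, went the other way in numbers 14 and 16. It had FP values of 0, 1.69 and 0.883 FPKM against RR values of 0.369, 0.843 and 0.332. Nab2, a corepressor of Egr proteins that Egr1 itself induces and likewise named after its values were seen, had FP values of 5.81, 5.60 and 5.07 FPKM against RR values of 4.73, 6.37 and 8.18 (log2 change -0.17 ± 0.27, limma adjusted p = 0.903).

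Of the Jun genes, Jun itself, the AP-1 subunit with strong transactivation, was lower in FP by its estimate. It was at 6.02, 11.2 and 13.7 FPKM in FP 11, 14 and 16, and at 12.3, 20.4 and 28.3 FPKM in RR. The groups overlapped by 1 value, since FP 16 exceeded RR 11, and in both groups the library numbered 11 was lowest. The means were 10.3 ± 3.91 and 20.3 ± 7.96 FPKM (SD, n = 3 each), a ratio of 1.97. The log2 change was -0.91 ± 0.39 (SE, 95% interval -1.79 to -0.03), with a limma adjusted p = 0.471. An antisense gene, Junos, overlaps Jun on the opposite strand, without shared exon bases in the annotation used.

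Junb, a weaker activator that can oppose Jun, varied most between libraries among the 8 tested factors, 6.09-fold from lowest to highest. It was at 3.38, 10.9 and 5.73 FPKM in FP 11, 14 and 16, and at 2.57, 15.6 and 6.73 FPKM in RR. The library numbered 14 was highest and that numbered 11 lowest in both groups, which overlapped almost fully. The log2 change was -0.13 ± 0.57 (95% interval -1.43 to 1.17, limma adjusted p = 0.974).

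Jund, the Jun gene known for steady rather than induced expression, was the most abundant of the 10 by mean FPKM, a value per transcript length. It was at 16.5, 54.3 and 48.1 FPKM in FP 11, 14 and 16, and at 20.0, 53.4 and 64.5 FPKM in RR. Both libraries numbered 11 were low and the other 4 high. The log2 change was -0.22 ± 0.55 (95% interval -1.47 to 1.03, limma adjusted p = 0.948). Gm11175, an antisense gene, shares exon bases with Jund on the opposite strand, and whether counting used strand is not stated in the labels. For Junb and Jund these intervals, from the fit without the library number, leave room for a 2-fold change in either direction. With the library number as a block they were narrower, -0.70 to 0.44 for Junb and -0.67 to 0.22 for Jund. No label ties the numbers to animals.

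Of the Fos genes, Fos was at nearly the same mean in both groups but with unequal spread. It was at 4.87, 7.02 and 1.42 FPKM in FP 11, 14 and 16, and at 4.82, 4.79 and 4.33 FPKM in RR. The RR values lay close together, while FP held both the highest and the lowest of the 6. The lowest, FP 16, corresponds to about 8 fragments (exact Poisson 95% interval 3.45 to 15.8, for counting error only), and FP 11 to about 40 (28.6 to 54.5). The means were 4.44 ± 2.83 and 4.65 ± 0.278 FPKM (SD, n = 3 each), with a log2 change of -0.22 ± 0.43 (95% interval -1.19 to 0.76, limma adjusted p = 0.932). Without FP 16 the estimate turned to 0.28 (limma adjusted p = 0.905).

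Fosl2, which codes for Fra-2, a Fos protein with a weak activation domain and known roles in cartilage and bone, was lower in FP by its estimate. It was at 4.32, 7.28 and 3.32 FPKM in FP 11, 14 and 16, and at 6.63, 9.90 and 6.95 FPKM in RR. The groups overlapped only through FP 14, and the library numbered 14 was highest in both. The means were 4.97 ± 2.06 and 7.83 ± 1.80 FPKM (SD, n = 3 each), with a log2 change of -0.60 ± 0.32 (95% interval -1.33 to 0.13, limma adjusted p = 0.615).

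Fosb and Fosl1 were low. Fosb, which also gives rise to the long-lived shorter protein ΔFosB, was at 1.42, 1.67 and 1.03 FPKM in FP 11, 14 and 16, and at 1.77, 1.19 and 0.617 FPKM in RR, with a log2 change of 0.14 ± 0.38 (95% interval -0.73 to 1.01, limma adjusted p = 0.955). The library numbered 16 was lowest in both groups. Fosl1, which codes for Fra-1, was listed at 0.609 FPKM in FP 14, about 2 fragments, and at 0 in the other 5 libraries. It shares exon bases with Ccdc85b on the opposite strand. A listed 0 can also be a failed estimate, so its absence cannot be read from these values.

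Atf3, a stress-induced factor that pairs with Jun proteins and often represses, was the 1 tested member besides Fosb with a higher estimate in FP. It was at 0.910, 1.81 and 3.40 FPKM in FP 11, 14 and 16, and at 1.19, 0.902 and 1.42 FPKM in RR. FP 14 and FP 16 exceeded all RR values and FP 11 did not. These values correspond to 7, 7 and 18 fragments in FP and 6, 3 and 8 in RR. The log2 change was 0.41 ± 0.40 (95% interval -0.51 to 1.33, limma adjusted p = 0.822). The estimate was 0.10 without FP 16 and 0.70 without FP 11.

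**Figure D2:**
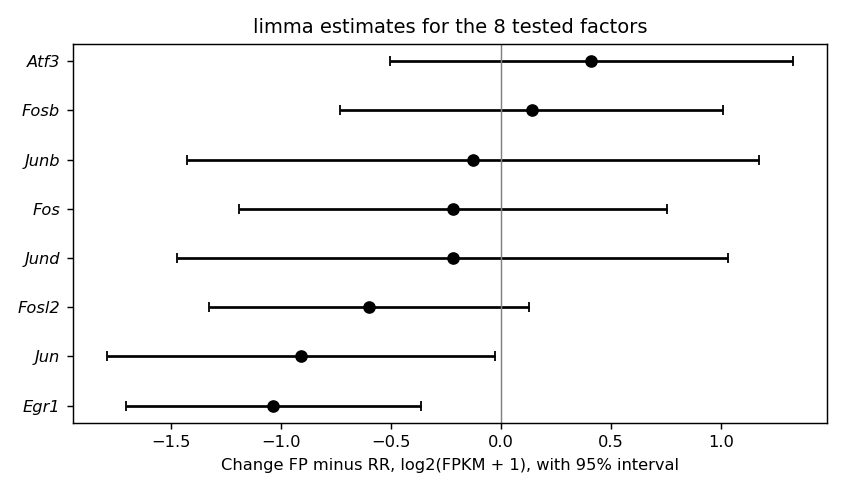
Change FP minus RR on the log2(FPKM + 1) scale from limma (points) with 95% intervals for each gene alone (bars), for the 8 tested factors. Only the intervals of Egr1 (-1.71 to -0.37) and Jun (-1.79 to -0.03) lie fully below 0, and neither passed after adjustment over all genes.

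By mean FPKM over the 6 libraries the order was Jund (42.8), Egr1 (21.3), Jun (15.3), Junb (7.49), Fosl2 (6.40), Fos (4.54), Atf3 (1.60), Fosb (1.28), Egr2 (0.637) and Fosl1 (0.102). The library values of all neighbours in this order overlapped. Jund stood at the 94.7th percentile of all tested genes by mean level, Egr1 at the 88.4th, Fos at the 50.1st and Fosb at the 9.34th.

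The factors differed in how their values were divided between group and library number. Of the sum of squares of the log2 values over the 6 libraries, the library number took 96.3% for Jund and 94.9% for Junb, and the group 2.23% and 0.707%. For Egr1 the group took 78.1% and the number 20.7%. Jun and Fosl2 lay between, with 49.5% and 46.5% for the group and 50.2% and 48.0% for the number. For Fos 40.6% was left to neither. Over all tested genes the median share was 47.1% for the number and 15.7% for the group. The number has 3 levels and the group 2, and these shares are a description without a test.

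**Figure D3:**
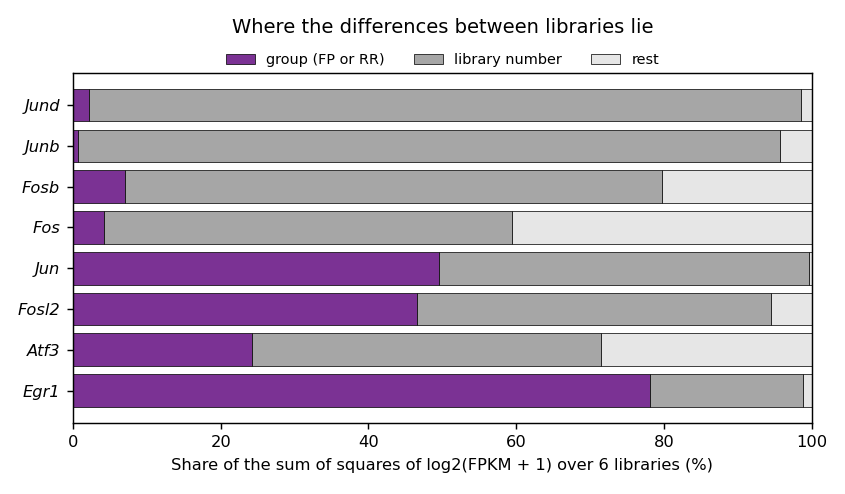
Share in percent of the sum of squares of log2(FPKM + 1) over the 6 libraries that falls to the group, the library number or neither, for the 8 tested factors. The group takes 78.1% for Egr1 and under 3% for Jund and Junb.

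Some other measures ran with the library number. Chondrocyte sums were lowest in both libraries numbered 11 (56346 FPKM in FP and 47589 in RR). Muscle sums were highest in both numbered 16 (581 and 821 FPKM). Blood and endothelial sums did not share a highest number, with FP 16 (123 FPKM) and RR 11 (122 FPKM) highest in their group. The 2 libraries numbered 11, low in Jund and Junb, had the highest summed levels of bone markers in their group (1052 FPKM in FP and 1690 in RR) and of macrophage and osteoclast markers (128 and 177 FPKM) and fibroblast markers (132 and 180 FPKM). In FP 14 and 16 the sums were 949 and 363 FPKM for bone, 71.1 and 93.0 for macrophage and osteoclast, and 124 and 73.2 for fibroblast markers. In RR 14 and 16 they were 363 and 238, 56.3 and 34.1, and 97.7 and 96.2 FPKM. FP 14, highest of FP in Jund and Junb, was thus close to FP 11 for bone and fibroblast markers. The part of these markers in the Jund and Junb values was not tested. Mmp13 and Mmp9, matrix metalloprotease genes known as AP-1 targets and named after their values were seen, were highest in those same libraries. Mmp13 was at 19.2, 3.33 and 2.57 FPKM in FP 11, 14 and 16 and at 27.4, 3.67 and 1.91 FPKM in RR. Mmp9 had FP values of 17.5, 7.71 and 2.37 FPKM against RR values of 26.0, 8.80 and 1.59. The Mmp9 values are not counted as a result separate from the macrophage and osteoclast sums above. For heat shock genes, a sign of stress during handling, the summed levels were 1162, 651 and 778 FPKM in FP and 866, 581 and 888 FPKM in RR, and the groups overlapped.

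The members did not all vary together. Across the 6 libraries Pearson's r of log2 values was 0.92 between Egr1 and Fosl2, 0.80 between Junb and Jund, 0.78 between Jun and Jund and 0.73 between Egr1 and Jun. It was -0.72 between Fos and Atf3 and -0.13 between Fos and Jun. By the naming rule, the genes of at least 10 FPKM most like Jund were Gigyf1, Phf1, Scarf2, Nckap5 and Tbc1d9b (r of 0.995 to 0.996 over 6 libraries, out of 3640 genes). Those most like Fos were Serpina1b, Baz2b, Csrp2, Cdadc1 and Mt1 (r of 0.91 to 0.94, out of 3641 genes). These values describe 6 libraries that share numbers and differ in depth.

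Upstream of the factors, 0 of 27 tested genes of serum response factor, its ternary complex partners and MAP kinases passed the test, and 0 had an unadjusted limma p under 0.05. Over all tested genes these shares were 0.967% and 10.3%. The median change of the 27 was 0.07. Among those with the smallest p were Elk1, a ternary complex factor, at 0.53 ± 0.27 (limma adjusted p = 0.594), and Mapk3, which codes for ERK1, at 0.43 ± 0.27 (adjusted p = 0.684). Both were higher in FP by estimate.

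Among bZIP partners and Egr kin, 0 of 19 tested genes passed (0.967% of all tested genes), with a median change of 0.01. At an unadjusted limma p under 0.05 there was 1, against 10.3% of all tested genes. That gene was Batf3, a Jun-binding factor best known from dendritic cells, at 6.32, 10.8 and 14.4 FPKM in FP and 1.37, 5.23 and 3.08 FPKM in RR. Its FP values all lay above its RR values, with a log2 change of 1.49 ± 0.42 (limma adjusted p = 0.215). Atf4, the factor of the integrated stress response, was at 0.67 ± 0.32 (adjusted p = 0.54) and Crem, of the CREB family, at -0.80 ± 0.48 (adjusted p = 0.669).

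Of 39 other tested immediate early and early response genes, 1 rose in FP and 0 fell, where 0.967% of all tested genes passed. Of the 39, 7 had an unadjusted limma p under 0.05, against 10.3% of all tested genes. The riser was Klf4, a Kruppel-like factor, at 15.6, 11.1 and 13.1 FPKM in FP and 3.83, 1.69 and 2.99 FPKM in RR. Its log2 change was 1.92 ± 0.30 (limma adjusted p = 0.0261). That call was lost without FP 11, FP 14, FP 16, RR 14 or RR 16 (adjusted p = 0.0910, 0.0796, 0.128, 0.0792 and 0.0851), without a filter (0.133) and without an intensity trend (0.0525). It was also lost without both libraries numbered 11, 14 or 16 (limma adjusted p = 0.109, 0.188 and 0.353). The estimate stayed at 1.69 to 2.11 when any 1 library was left out, and the call held without RR 11 (limma adjusted p = 0.0386), with library weights (0.0185) and with quantile normalization (0.0491). Next by p were Cebpb, a bZIP factor of another family, at 1.75, 1.39 and 1.53 FPKM in FP and 3.73, 6.49 and 6.46 FPKM in RR (-1.33 ± 0.30, limma adjusted p = 0.107), and Klf2, at 1.63 ± 0.40 (adjusted p = 0.15). By estimate 19 of the 39 were higher in FP and 20 lower, with a median of -0.05. The list thus held estimates on both sides of 0 in nearly equal number. Groups without overlap were less even, 6 with FP higher and 2 with FP lower. Over all tested genes these made up 8.74% and 7.28%.

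**Figure D4:**
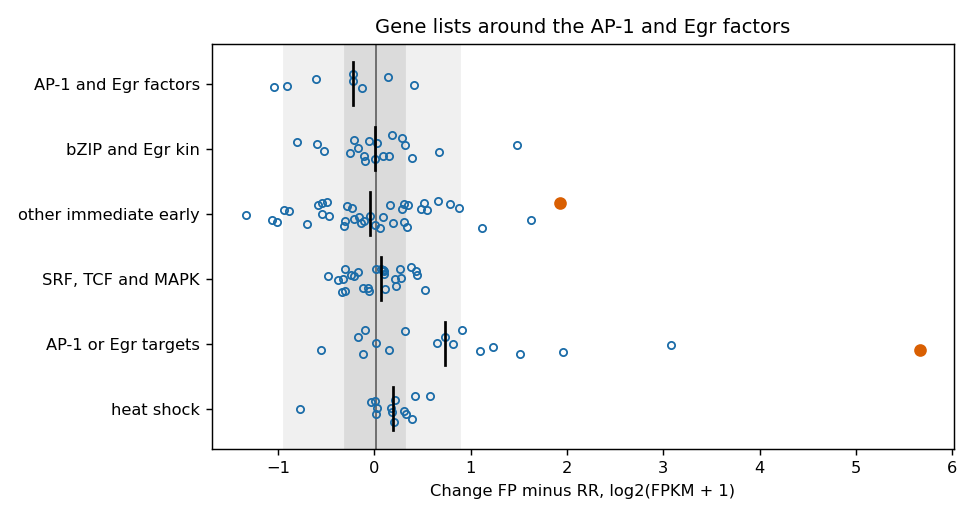
Change FP minus RR on the log2(FPKM + 1) scale for each tested gene of 6 lists (open circles; filled where adjusted p was under 0.05), with black bars at list medians. Shading spans the 25th to 75th percentile and the 5th to 95th percentile (-0.94 to 0.89) of all tested genes. The 2 filled points are Klf4 and Col10a1.

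Of 17 tested genes with known AP-1 or Egr regulation in skeletal or connective tissue, 1 rose in FP and 0 fell. In either direction 0.967% of all tested genes passed. Of the 17, 7 had an unadjusted limma p under 0.05, against 10.3% of all tested genes. By estimate 13 were higher in FP, with a median of 0.73 beside 0.02 for all tested genes. The riser was Col10a1, the collagen X gene of hypertrophic chondrocytes, which has many other regulators (5.66 ± 0.47, limma adjusted p = 0.00202, but 0.0790 without a filter and 0.0588 without both libraries numbered 14). Next were Ibsp, a bone matrix sialoprotein gene, at 3.08 ± 0.58 (adjusted p = 0.0571) and Tgfb1, a growth factor gene, at 1.51 ± 0.33 (adjusted p = 0.095). With all 6 libraries Ibsp passed under a filter at 5 FPKM (limma adjusted p = 0.0430) and Tgfb1 with library weights (0.0453). Without RR 11 Ibsp passed (limma adjusted p = 0.00702), and without FP 11 Tgfb1 did (adjusted p = 0.0375). Most alternatives did not bring them past the threshold. Of 19 alternative fits Ibsp passed in 5 and Tgfb1 in 3. Without 1 library the limma adjusted p reached 0.215 for Ibsp (without RR 14) and 0.365 for Tgfb1 (without FP 16). The list was chosen with these results known. It shares Ibsp and Bglap with the bone markers and Sox9 with the chondrocyte markers. It also shares Mmp9 with the macrophage and osteoclast markers and Nab2 with the Egr kin. A further 9 of its 26 genes, among them Mmp3, Il6 and Ptgs2, were below a mean of 1 FPKM. Of the heat shock genes, 0 of 14 tested passed and 0 had an unadjusted limma p under 0.05, with a median of 0.19. By estimate 12 of the 14 were higher in FP, and their part in the values of the factors was not tested. Dnajb4, Hspb1 and Dnajb1 had the smallest p, at -0.77 ± 0.40, 0.58 ± 0.37 and 0.40 ± 0.33.

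On mm10, per GENCODE M21, Jun is on chromosome 4 (95049034 to 95052222, minus strand, 1 exon), Jund on chromosome 8 (70698949 to 70700616, plus strand, 1 exon) and Junb on the same chromosome (84974484 to 84978718, minus strand, 1 exon). Fos is on chromosome 12 (85473890 to 85477273, plus strand, 4 exons), Fosl2 on chromosome 5 (32135801 to 32157842, plus strand), Fosb on chromosome 7 (19302696 to 19310051, minus strand) and Fosl1 on chromosome 19 (5447547 to 5455946, plus strand). Atf3 is on chromosome 1 (191170296 to 191218039, minus strand), Egr1 on chromosome 18 (34859823 to 34864984, plus strand, 2 exons) and Egr2 on chromosome 10 (67535475 to 67542188, plus strand).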

How the data were processed

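RNA of 6 microdissected layers went through a stranded, low-input kit (SMARTer Pico), per the labels. The authors deposited 1 FPKM value per gene symbol and library, per the file headers. The submitters' processing notes name Cuffdiff 2.2.1, TopHat2 2.1.1, SAMtools 0.1.18 and Bowtie2 2.2.8, and the mm10 build. The annotation, the use of strand and any scaling between libraries are not stated there.

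Here limma 3.58.1 (R 4.3.3) tested FP minus RR, two-sided and with an intensity trend, on log2(FPKM + 1) of genes whose 6 libraries averaged 1 FPKM or more. This scale understates changes of low genes. The fit was tested on simulated data. The FPKM worth of 1 fragment came from symbols with 1 GENCODE M21 basic transcript of 1500 to 3000 bp. There 69.6% to 72.9% of low values were whole within 0.1 fragments, against 20% for evenly spread values. The step was fitted to these same values, so this is a description and not a test. Where a step and its double fitted nearly as well, the larger was taken. Fragment numbers and depth ratios rest on that choice. Fragments of each factor were then taken with its longest basic transcript, such as 4484 bp for Egr1, which has 2. The total of fragments is unknown, and intervals cover counting error only. Members, lists, motifs and alternatives were chosen with earlier results of these data known. Named genes are the 10 members, called genes and the 3 smallest p of each of 5 lists, and the 5 genes most like Fos and Jund; 1 gene the rule names is not reported here. Other scalings, filters, weights, a block for the library number and left-out libraries were tried. Sequences are from RefSeq, GRCm38.p6.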

Additional observations from a re-analysis of the deposited data

How the results depend on the processing

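In none of the planned fits, themselves chosen with earlier results of these data known, did any tested factor pass (0 called in each). These fits tested 8 of the 10 factors, but 5 under the filter at 5 FPKM and 10 without a filter. Egr1, Jun and Fosl2 kept estimates below 0 in all 19 alternatives, from -1.27 to -0.89, -1.21 to -0.60 and -0.86 to -0.39. Atf3 stayed above 0, from 0.10 to 0.71. A filter, the intensity trend or a block leaves each estimate as it is, so those alternatives could not change a sign. Without 1 library, the sign of the other 4 tested factors depended on which was left out: Fos ran from -0.58 to 0.28, Fosb from -0.064 to 0.32, Junb from -0.69 to 0.43 and Jund from -0.72 to 0.30. Jund was also at 0.039 with library weights, Fos at 0.24 without both libraries numbered 16, and Junb at 0.048 without both numbered 14, with or without a block. The cause was not tested.

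Libraries with the same number deviated from their group means together at r of 0.319 (11), 0.185 (14) and 0.089 (16) over 14789 genes, and every library correlated best with its own number. As 1 pair is below 0.1 and no label ties numbers to animals, this is a hint from the data. With the number as a replicate block 271 of 14789 genes differed in place of 143, 4 target genes in place of 1 (Col10a1, Ibsp at 0.0280, Tgfb1 at 0.0459 and Ccnd1 at 0.0409) and 0 of the 8 tested factors (limma adjusted p = 0.0564 for Egr1 and 0.0796 for Jun). Within numbers 11, 14 and 16 the ratio of RR to FP was 2.28, 1.86 and 2.30 for Egr1 and 2.05, 1.82 and 2.06 for Jun and 1.54, 1.36 and 2.1 for Fosl2. These 3 of the 8 tested factors were lower in FP in all 3 numbers, as were 17.1% of tested genes. In a fit chosen after seeing the data, the replicate block with rescaling by the summed FPKM outside the 100 highest genes, 2 factors passed, Egr1 (-1.21, limma adjusted p = 0.0240) and Jun (-1.07, 0.0345), with 313 genes and 2 targets called. Egr1 did not pass with the block without both libraries numbered 14 (0.153), also added later. Rescaling alone moved the median change of all genes from 0.02 to -0.13 and the split of calls from 82 higher and 61 lower to 73 and 84.

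Without 1 library, 42 to 85 genes differed, with 0 or 1 other immediate early gene and 1 or 2 targets. Without both libraries of a number 42 (11), 8 (14) and 20 (16) differed, with 0 other immediate early genes and 2, 0 and 1 targets. Without a filter 17 genes differed, with 0 early genes and 0 targets, and without an intensity trend 83, with 0 early genes. Library weights and a filter at 5 FPKM each gave 2 targets. Fosl1, Egr2, Atf3 and Fosb rested on few fragments, as did Fos in FP 16.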
